A study of Mus musculus with 8 samples.

Results

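The transcripts of p53 and of 9 genes around it were followed in multipotent progenitors (MPPs) that carry NUP98-HOXA10hd (NA) and in wild-type (WT) MPPs. The 10 genes were taken as a list of symbols, with no threshold on a measured value: Trp53, which encodes p53, its inhibitors Mdm2 and Mdm4, and the targets Ccng1, Phlda3, Zmat3, Sesn1, Sesn2, Trp53inp1 and Aen. All 10 were found among the 37980 gene rows of the table, and 9 of them passed the filter on low values, as did 11451 genes in all. NA MPPs came from bone marrow of NA LSL/+;Vav-Cre mice on a C57BL/6 background, in which Cre under the Vav promoter switches on the fusion of the nucleoporin NUP98 with the homeodomain of HOXA10 in blood cells, and WT MPPs came from age-matched C57BL/6 mice carrying CD45.2. Each of the 4 NA and 4 WT libraries was made from amplified cDNA of 1000 cells sorted as Lin-CD48-ckit+Sca1+CD135+CD150-. The ages and the number of animals are not given in the sources used here, so p-values measure the spread between these libraries, which may be technical.

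p53 is a transcription factor that is made continuously and kept at a low protein level, because Mdm2, itself a p53 target, attaches ubiquitin to it and sends it to the proteasome. Mdm4, a relative of Mdm2, binds p53 and blocks its activating domain. After DNA damage, replication stress or oncogene activity, p53 is stabilised and switches on genes for cell cycle arrest, repair, antioxidant defence and cell death. In stem and progenitor cells of blood, p53 is known for restraining proliferation and for removing damaged cells, and its regulation is largely at the protein level, which RNA sequencing does not measure.

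Since p53 acts through short DNA elements, the promoter sequences of the 10 genes were searched for the p53 half-site consensus, a palindromic pattern of 10 letters that reads alike on both strands. A full p53 element holds a pair of half-sites, so a single match is no more than a description of the letters. RefSeq windows (GRCm38.p6) of 300 bases, from 250 bases before to 50 after an annotated start, were at hand for 8 of the genes. An exact match was found for 5 of these 8, Trp53, Mdm2, Ccng1, Sesn1 and Aen, while the windows of Mdm4, Phlda3 and Sesn2 held none. Zmat3 and Trp53inp1 were not searched. Of all 27025 genes with a window, 9.55% held a match, and of 25 other p53 targets with a window 7 did (28%). The matches are shown here in capitals, 5′ to 3′ on the strand of the gene, within the upstream bases that lie in no annotated exon, for the 4 genes whose match lay in such bases.
Trp53, chr11:69580256-69580358, plus strand: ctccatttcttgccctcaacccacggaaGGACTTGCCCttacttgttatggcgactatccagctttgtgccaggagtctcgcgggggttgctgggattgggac
Mdm2, chr10:117710759-117711008, minus strand: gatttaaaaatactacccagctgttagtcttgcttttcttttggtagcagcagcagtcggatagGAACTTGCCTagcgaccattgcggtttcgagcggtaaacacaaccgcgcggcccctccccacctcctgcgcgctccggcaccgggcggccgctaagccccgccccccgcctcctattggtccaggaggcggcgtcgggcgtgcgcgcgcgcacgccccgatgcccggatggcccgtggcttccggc
Ccng1, chr11:40755312-40755536, minus strand: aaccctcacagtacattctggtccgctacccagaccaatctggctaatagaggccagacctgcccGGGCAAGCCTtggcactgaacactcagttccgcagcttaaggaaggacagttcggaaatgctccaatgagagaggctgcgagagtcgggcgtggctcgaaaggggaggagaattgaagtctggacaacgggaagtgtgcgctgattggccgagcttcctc
Sesn1, chr10:41887189-41887438, plus strand, before the start of a transcript inside the gene: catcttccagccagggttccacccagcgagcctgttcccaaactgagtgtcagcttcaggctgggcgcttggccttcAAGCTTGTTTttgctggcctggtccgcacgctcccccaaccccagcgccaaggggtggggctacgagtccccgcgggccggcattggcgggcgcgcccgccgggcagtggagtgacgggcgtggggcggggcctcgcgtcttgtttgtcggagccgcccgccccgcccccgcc
The match began 75 bases before the start of Trp53, 186 before that of Mdm2, 185 before that of Ccng1 and 173 before the inner start of Sesn1. The match of Aen, at chr7:78895937-78895946 on the plus strand, overlapped an annotated exon and is not shown. It began after an annotated start of Aen and 121 bases before a later one.

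Depth was estimated from the smallest step between values and ranged from 3876907 to 4916988 reads per library. Defining markers of the sort were present, with Kit, Ly6a and Flt3 above 1000 normalised counts in every library. Cd48 and Slamf1, against which cells were sorted, were below 100. Cd34, which was not part of the sort, was also above 1000 in every library. Cd48 was lower in NA, at 12.2 to 22.4 against 34.2 to 83.8 in WT libraries (limma, adjusted p = 0.00712). Ly6a was also lower, at 1221 to 1408 against 1482 to 1614 (limma, adjusted p = 0.0257). Kit, Flt3, Slamf1 and Cd34 were not called. Elane, Ly6g, Cd3e, Cd3g, Cd8a and Pax5 were listed at 0 in all 8 libraries, but other lineage markers were not. Hbb-bt was at 28.3 to 56.4 normalised counts in NA and 131 to 185 in WT libraries (limma, adjusted p = 6.79e-05). Mpo was at 6.46 to 21.3 in NA and 17.8 to 52.4 in WT (limma, adjusted p = 0.0422). Cd4 was at 0.94 to 13.8 in NA and 7.93 to 21.6 in WT, and was not called. The summed granulocyte and monocyte markers were highest in WT3, at 291 normalised counts. The sum was 61.3 to 148 in the other WT libraries and 35.5 to 49.6 in the NA libraries. In WT3 it came mostly from S100a9 at 158, S100a8 at 64.9 and Mpo at 52.4 normalised counts. Itgam at 15.9 and Csf1r at 0 were instead lowest in WT3 among the WT libraries. NA4 and WT4 lay closer to a weighted sum of the other 3 of their group than those did. The SD of the log2 residual was 0.112 in WT4 against 0.206 to 0.243 in the other WT libraries, and 0.165 in NA4 against 0.191 to 0.277. Results are therefore also given without this pair of libraries where they change. Xist was at 0.940 to 2.80 normalised counts in NA and 869 to 1285 in WT libraries, and the Y-linked Eif2s3y at 516 to 667 in NA and 0 to 0.888 in WT, so genotype and sex of the donors, which the labels do not give, cannot be told apart in any comparison here.

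Across all genes tested, limma called 2053 of 11451 genes at an adjusted p below 0.05, or 17.9%, with 10.1% higher in NA and 7.87% lower. Among the 9 members tested, 1 was called, Trp53inp1, which was higher in NA MPPs. Trp53 itself had the largest log2 difference of the 9, higher in every NA library than in any WT library, but it did not pass the test, with WT libraries from 0 to 271 normalised counts. In sorted pools such as these, fewer cells that express a gene and less of its RNA per cell cannot be told apart. The inhibitors Mdm2 and Mdm4 did not pass either, and of the 7 targets Ccng1, Sesn1, Sesn2, Zmat3 and Aen did not. Phlda3 had too few reads to enter the test. At an unadjusted p below 0.05, Trp53 and Trp53inp1 were higher and Sesn1 and Aen lower, beside 32.5% of all genes. Without NA4 and WT4, limma called 519 of all genes and 0 of the 9 members at an adjusted p below 0.05. Trp53, Trp53inp1 and Sesn1 then had an unadjusted p below 0.05. The share of all genes at this rule was not counted for that fit, and was 32.5% with all 8 libraries.

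**Figure D1:**
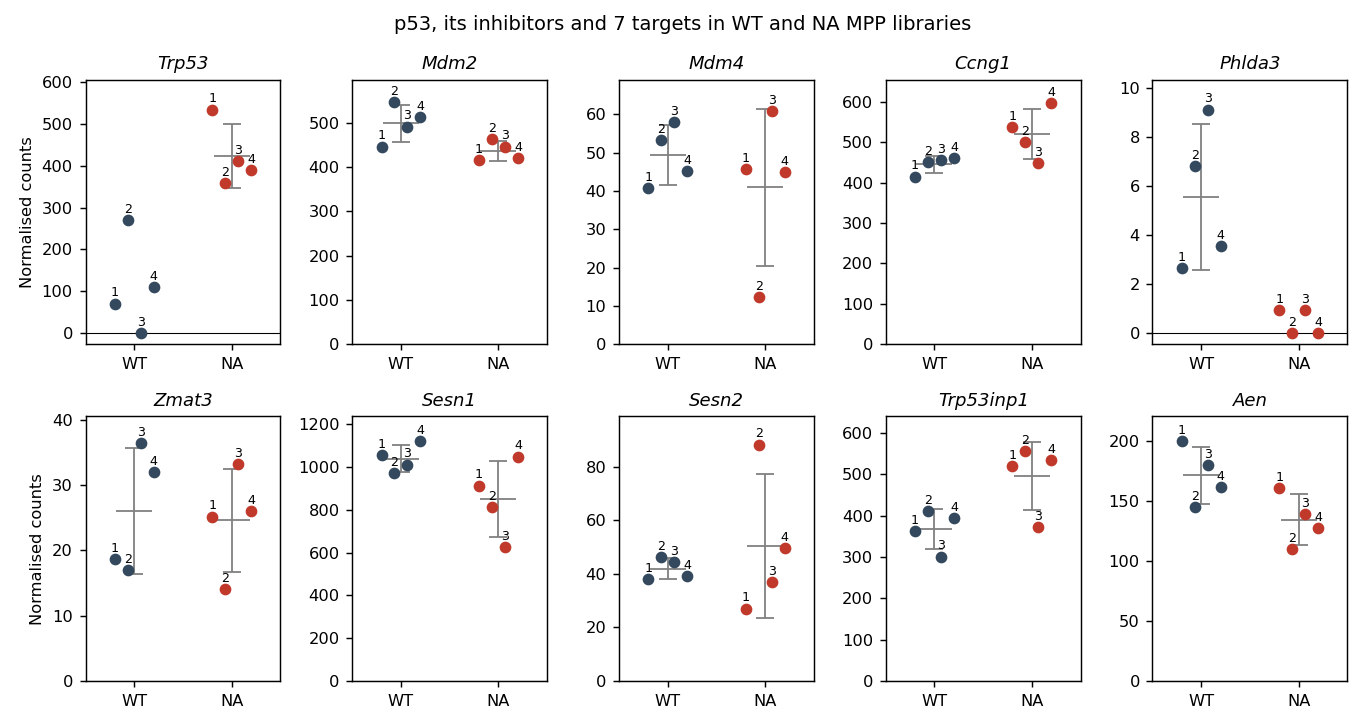
Normalised counts (y axis, linear) of the 10 genes in each WT (blue) and NA (red) MPP library, with library numbers above the points. Grey lines show the mean ± SD of 4 libraries and are left out where a library is at 0. Trp53 and Phlda3 are the panels in which the groups do not overlap, beside 22.0% of all genes tested, which do not include Phlda3.

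Trp53 (ENSMUSG00000059552, chr11:69580359-69591873) was at 534 normalised counts in NA1, 359 in NA2, 412 in NA3 and 390 in NA4. In WT libraries it was at 70.1 in WT1, 271 in WT2, 110 in WT4 and listed at 0 in WT3. The lowest NA library thus lay above the highest WT library, as in 11.5% of all genes tested, where 22.0% had groups without overlap in either direction. The difference was 3.46 on the log2(normalised count + 1) scale (SE 1.18; limma, adjusted p = 0.0556). The size rested on WT3, without which it was 1.70 and passed the test (limma, adjusted p = 0.00514). It also passed without WT2 (limma, adjusted p = 0.0193) or WT4 (0.0494), with adjusted p-values from 0.00514 to 0.186 over 21 alternatives, 6 of which called it.

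The spread of Trp53 in WT MPPs was among the widest in the table. The SD of its log2 values was 3.60 in WT and 0.247 in NA libraries (n = 4 each), and only 1 of 9000 genes that averaged 50 or more normalised counts had a larger SD in WT. Of 5364 genes that reached 200 normalised counts in a WT library, only 2 were listed at 0 in another, Trp53 and Atf3, the latter an immediate early transcription factor at 0 in WT1. These genes were looked for after the value of WT3 was seen. In WT3 itself, Mdm2 was at 491, Ccng1 at 455 and Sesn1 at 1011 normalised counts, each inside the range of the other WT libraries, and Trp53inp1 at 301, below them. WT3 also had the highest sum of granulocyte and monocyte markers, as given above, from some of these genes only. Their part in its Trp53 value was not tested.

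Since RSEM shares reads among similar transcripts, the processed pseudogenes of p53 and Mdm4 were examined. Trp53-ps on chr17 is 95% identical to Trp53 over 1170 aligned bases, and it was listed at 0 in all 8 libraries, WT3 included. Mdm4-ps on chrX is 94.1% identical to Mdm4 over 4184 bases, and it held more than Mdm4 in every library. It was at 169, 178, 188 and 195 normalised counts in NA1 to NA4 and at 237, 234, 165 and 197 in WT1 to WT4. Values of Mdm4 are therefore uncertain, while no exon of another annotated gene shared a base with the exons of the 10 genes.

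**Figure D2:**
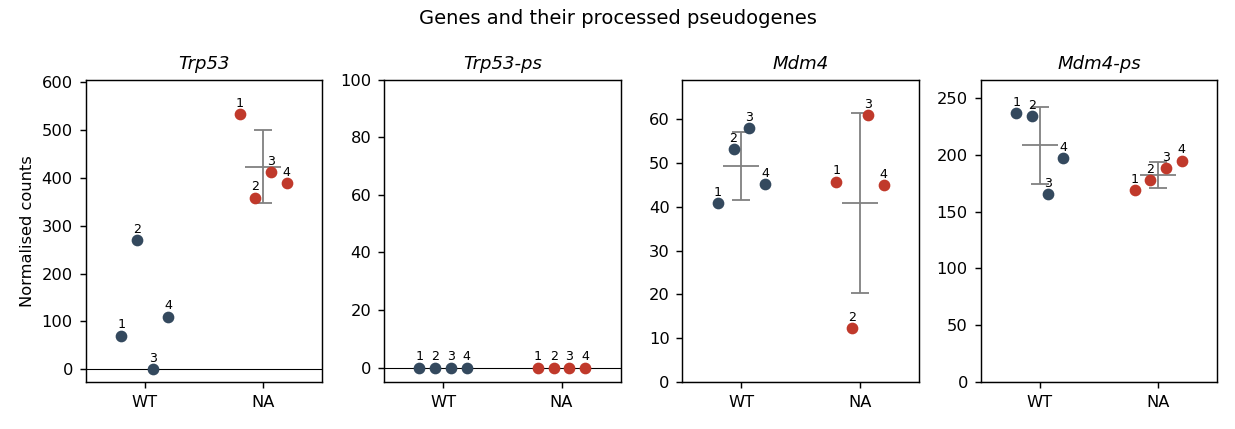
Normalised counts (y axis, linear) of Trp53, Mdm4 and their processed pseudogenes in WT (blue) and NA (red) libraries, with mean ± SD of 4 libraries where none is at 0. Trp53-ps sits at 0 throughout, and Mdm4-ps lies between 165 and 237, above Mdm4 in every library.

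Mdm2 (ENSMUSG00000020184, chr10:117688875-117710758), the main ubiquitin ligase for p53, was at 415, 463, 446 and 419 normalised counts in NA1 to NA4 and at 446, 546, 491 and 512 in WT1 to WT4. The groups overlapped at WT1, which lay just below NA3, and Mdm2 was the most even of the 9 tested members among NA libraries. The difference was -0.19 on the log2 scale (SE 0.10; limma, adjusted p = 0.203). Mdm4 (ENSMUSG00000054387, chr1:132959484-133030561) rested on 13 to 66 reads per library. It was at 45.7, 12.2, 60.9 and 44.9 normalised counts in NA1 to NA4 and at 40.8, 53.2, 58.1 and 45.3 in WT1 to WT4. Only NA2 stood below the other libraries, and the difference of -0.46 (SE 0.404; limma, adjusted p = 0.467) turned to 0.03 without NA2. With Mdm4-ps added, the difference was -0.21 (limma, adjusted p = 0.316).

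Within each library, 4 log2 ratios between members were compared, each of normalised counts + 1. The log2 ratio of Mdm2 to Trp53 was 2.65, 1.01, 8.94 and 2.21 in WT1 to WT4 and lay between -0.36 and 0.36 in NA libraries. The ratio was lower in each NA library than in each WT library, which gave an exact two-sided permutation p of 0.0286, the smallest that 4 against 4 libraries allow, and an adjusted p of 0.0571 over the 4 ratios. The difference was -3.65, and it was -1.90 without WT3, whose ratio rests on the added 1 because Trp53 is at 0 there. Mdm4 to Trp53 gave the same p-values with a difference of -3.91, and -2.08 without WT3. Both ratios hold Trp53, whose NA and WT values already did not overlap, so they add no separate evidence to the Trp53 values above. Values of Mdm4 are also uncertain. Mdm2 to Mdm4 differed by 0.26 (exact permutation p = 0.943, adjusted 0.943) and Sesn1 to Sesn2 by -0.44 (exact permutation p = 0.343, adjusted 0.457). None of the 4 ratios passed the adjusted threshold. Without NA4 and WT4 the differences were -4.161 for Mdm2 to Trp53 and -4.605 for Mdm4 to Trp53 (exact permutation test, adjusted p = 0.2 for each). The smallest unadjusted p that 3 against 3 libraries allow is 0.1.

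Of the 7 targets, Trp53inp1, Ccng1 and Sesn2 had higher means in NA than in WT MPPs. Trp53inp1 (ENSMUSG00000028211, chr4:11156431-11174379) encodes a stress-induced nuclear protein that promotes p53 activity and autophagy. It was at 520, 556, 373 and 534 normalised counts in NA1 to NA4 and at 362, 410, 301 and 394 in WT1 to WT4. All NA libraries but NA3 lay above all WT libraries. It rose 1.35-fold, or by 0.43 on the log2 scale (SE 0.141), and lay just inside the threshold (limma, adjusted p = 0.0498). The call was held in 6 of 21 alternatives, with adjusted p-values from 0.00774 to 0.209, and was lost without NA1, NA2, NA4, WT1, WT3 or WT4 and without both NA4 and WT4 (limma, adjusted p = 0.209). TMM, total-count and upper-quartile scaling also ended it, with adjusted p-values from 0.0519 to 0.0859. With the GC trend removed the difference was 0.25 (limma, adjusted p = 0.174).

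Ccng1 (ENSMUSG00000020326, chr11:40748552-40755311) encodes cyclin G1, which recruits a phosphatase to Mdm2. It was at 538, 500, 448 and 598 normalised counts in NA1 to NA4 and at 415, 451, 455 and 462 in WT1 to WT4. NA3 lay inside the WT range and the other NA libraries above it. The difference was 0.22 on the log2 scale (SE 0.107; limma, adjusted p = 0.177). Ccng1 was the most even of the tested members among WT libraries, with an SD of 0.0683 on the log2 scale.

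The sestrins restrain the growth kinase mTORC1 and take part in antioxidant defence. Sesn1 (ENSMUSG00000038332, chr10:41809935-41908424) was at 913, 813, 627 and 1049 normalised counts in NA1 to NA4 and at 1056, 972, 1011 and 1120 in WT1 to WT4. NA4 lay among the WT libraries and the other NA libraries below them, a difference of -0.31 (SE 0.130; limma, adjusted p = 0.110) that passed only without NA4, at -0.42 (limma, adjusted p = 0.0477). Without NA3 it was -0.17 (limma, adjusted p = 0.239). Sesn2 (ENSMUSG00000028893, chr4:132492032-132510501) was at 27.1, 88.4, 36.9 and 49.6 in NA1 to NA4 and at 38.2, 46.4, 44.4 and 39.1 in WT1 to WT4. The WT libraries lay close together, whereas NA1 and NA2 were the lowest and highest of all 8. The difference was 0.13 (limma, adjusted p = 0.824) and turned to -0.18 without NA2.

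Aen (ENSMUSG00000030609, chr7:78895854-78911209) encodes a nuclease that takes part in DNA fragmentation during apoptosis. It was at 161, 110, 139 and 128 normalised counts in NA1 to NA4 and at 200, 145, 180 and 162 in WT1 to WT4. Only NA1 reached into the WT range, and the difference was -0.35 (SE 0.165; limma, adjusted p = 0.154). Zmat3 (ENSMUSG00000027663, chr3:32334792-32366014) encodes a zinc finger RNA-binding protein and rested on 15 to 36 reads. It was at 25.2, 14.1, 33.2 and 26.0 normalised counts in NA1 to NA4 and at 18.6, 17.0, 36.4 and 32.0 in WT1 to WT4. The groups covered nearly the same range, with a difference of -0.06 (SE 0.380; limma, adjusted p = 0.928).

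Phlda3 (ENSMUSG00000041801, chr1:135766119-135769136) encodes a small lipid-binding protein that competes with the kinase Akt for the membrane. NA libraries held at most 1 estimated read of it and WT libraries 3 to 8. In normalised counts it was at 0.933 in NA1, 0 in NA2, 0.923 in NA3 and 0 in NA4, and at 2.66, 6.79, 9.11 and 3.55 in WT1 to WT4. The groups did not overlap, beside 22.0% of all genes tested, which do not include Phlda3. The share among genes as low as Phlda3 was not counted. Against a floor of 2.98 normalised counts, the mean of 3 reads per NA library, the WT mean of 5.53 was 1.85-fold higher. The floor covers counting error of the NA libraries only. WT1 lay below it, so 1.85 is not a lower bound of the difference. When the filter on low values was dropped, limma gave an adjusted p of 0.0231 for Phlda3 and called no other member. That fit called 1574 of all 17710 genes.

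Levels of different genes were compared per kb of annotated exon. In NA MPPs Sesn1 was highest, at 214 ± 44.6 normalised counts per kb (SD, n = 4), followed by Ccng1 at 148 ± 18.0, Trp53 at 105 ± 19.0, Mdm2 at 85.7 ± 4.41, Trp53inp1 at 76.5 ± 12.8 and Aen at 23.2 ± 3.66. The ranges of neighbours overlapped from Sesn1 to Trp53inp1, and Aen and all lower genes lay below those. Sesn2 at 14.5 ± 7.74 overlapped with Aen, Mdm4 was at 2.77 ± 1.39 and Zmat3 at 2.15 ± 0.691, and Phlda3 lay at 0 to 0.599. In WT MPPs Sesn1 at 261 ± 16.1 lay above all others, and Ccng1 at 127 ± 5.90 lay above Mdm2 at 98.1 ± 8.26 and Trp53inp1 at 56.6 ± 7.47 without overlap. Trp53 spread from 0 to 66.9 per kb in WT, across the ranges of Trp53inp1 and of every gene below it. Thus the ranks of the other 4 most abundant genes were alike in both groups, and Trp53 had the third place in NA and the sixth in WT. When the longest transcript was taken as the length, Mdm2 moved above Trp53 in NA and above Ccng1 in WT.

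**Figure D3:**
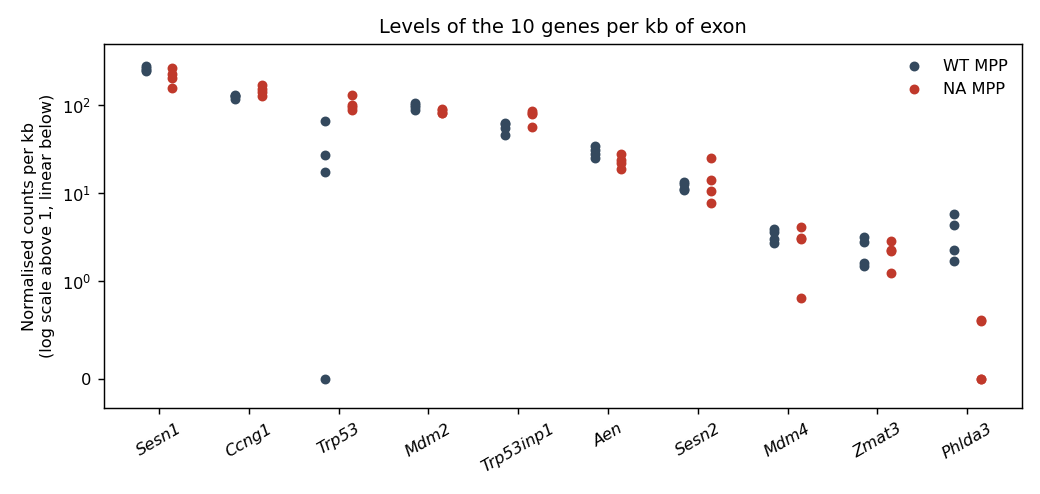
Normalised counts per kb of exon (y axis, logarithmic above 1 and linear below) of the 10 genes, ordered by their mean in NA MPPs. Each point is a WT (blue) or NA (red) library. The WT points of Trp53 run from 0 to 66.9, and Phlda3 is the lowest gene in NA.

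Targets of p53 beyond the 7 members were taken from 4 lists of 32 genes, chosen by function. Of 29 that were tested, 4 were called higher in NA MPPs and 4 lower, or 27.6%, beside 17.9% of all genes, and the median log2 fold change was 0.04, beside -0.01 over all genes tested. Without NA4 and WT4 2 were called, Gadd45a and Gpx1, beside 519 of all 11494 genes in that fit. Over fits that leave out 1 library the count ran from 3 to 7. It was 3 without NA2, beside 1504 of 11310 genes, and 3 without NA4, beside 1106 of 11296. The count was 4 without NA3, beside 2141 of 11296 genes, and 5 without WT1, beside 1549 of 11332. Polh and Gls2 were listed at 0 in all libraries.

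The genes called higher were all arrest and stress targets, 4 of the 8 tested, beside 10.1% of all genes. The median log2 fold change of the list was 1.39. Gadd45a, which inhibits the G2 to M transition, was at 137 to 168 normalised counts in NA and at 12.5 to 31.9 in WT libraries, higher by 2.92 on the log2 scale (SE 0.283; limma, adjusted p = 1.41e-05). It was called under all 21 alternatives. Plk2, a polo-like kinase of the stress response, was at 139 to 289 in NA and 1.78 to 95.1 in WT, higher by 2.61 (limma, adjusted p = 0.0359). For its relative Plk3 the log2 fold change was 1.63 (limma, adjusted p = 0.0374) and for Btg2, an antiproliferative adaptor of mRNA deadenylation, 1.51 (limma, adjusted p = 0.0242). The groups of the latter pair overlapped, since WT2 reached into the NA range. Leaving out NA2, NA3 or NA4 ended the calls of Plk2, Plk3 and Btg2, and that of Plk3 was also lost without WT1 or WT3. Without WT1, the library lowest in both genes, the log2 fold change was 1.45 for Plk2 and 0.94 for Btg2. Cdkn1a, which encodes the cell cycle inhibitor p21, was at 65.3, 208, 348 and 151 in NA1 to NA4 and at 14.2, 233, 70.6 and 85.2 in WT1 to WT4. WT2 stood above all NA libraries but NA3, and the log2 fold change of 1.27 did not pass (limma, adjusted p = 0.186). It was 0.54 without WT1, and without WT2 it was 1.86 and passed (limma, adjusted p = 0.0437).

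Immediate early genes are induced within minutes by growth signals and by cell dissociation. Of 13 such genes, limma called 9 higher and 0 lower, beside 10.1% and 7.87% of all genes. At an unadjusted p below 0.05, 10 were higher and 0 lower, beside 32.5% of all genes in either direction. The median log2 fold change of the 13 genes was 1.42. Their summed level was 43212 to 50500 normalised counts in NA and 5997 to 20154 in WT libraries. Among WT libraries the sum was lowest in WT1 and highest in WT2, and Btg2, Plk2, Plk3 and Cdkn1a were likewise lowest in WT1 and highest in WT2. Among NA libraries NA3 had the highest sum and the highest level of each of these genes. Gadd45a did not keep this order, with its lowest WT level in WT2. The part of the immediate early response in the levels of the arrest targets was not tested.

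**Figure D4:**
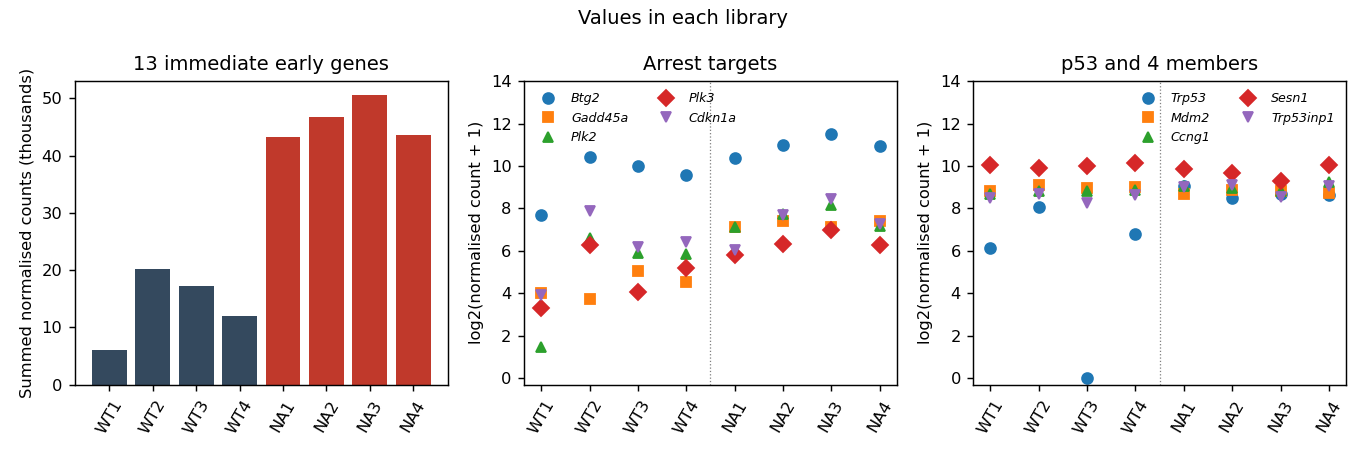
Summed normalised counts of 13 immediate early genes (left, bars from 0), and log2(normalised count + 1) of 5 arrest targets (middle) and of Trp53 with 4 members (right), in each of the 8 libraries. The sums lie at 43212 to 50500 in NA and 5997 to 20154 in WT libraries, and Btg2, Plk2, Plk3 and Cdkn1a are lowest in WT1.

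Of the death targets, 0 of 10 tested were called by limma, beside 17.9% of all genes. Fas alone was lower at an unadjusted p below 0.05, beside 15.6% of all genes. Bax, which opens the mitochondrial outer membrane, was at 12.0 to 18.8 normalised counts in NA and 18.6 to 38.5 in WT libraries, and its log2 fold change was -0.77 (limma, adjusted p = 0.164). For Bbc3, which encodes Puma, the log2 fold change was -0.88 (limma, adjusted p = 0.219), and for Pmaip1, which encodes Noxa, 0.12 (limma, adjusted p = 0.928). All of these lay under 50 normalised counts in every library.

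All repair and metabolic targets that were called were lower in NA, as were 7.87% of all genes. Of 5 repair targets tested, Polk, a polymerase that copies past damaged bases, fell by 0.77 on the log2 scale (limma, adjusted p = 0.00748) and Xpc, which recognises DNA lesions, fell by 0.49 (limma, adjusted p = 0.0309). Polk was at 68.3 to 89.8 normalised counts in NA and 126 to 153 in WT. Of 6 metabolic and redox targets tested, Gpx1, a glutathione peroxidase, fell by 0.59 (limma, adjusted p = 0.000156), from 4823 ± 76.2 in WT to 3211 ± 304 in NA (SD, n = 4 each). Rps27l, a ribosomal protein that takes part in the control of Mdm2, fell by 0.37 (limma, adjusted p = 0.0477). Gpx1 was called under all 21 alternatives. The call of Xpc was lost without NA2, NA4 or any 1 of the WT libraries, and that of Rps27l without any 1 library other than WT3.

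Regulators and cofactors of p53 were described from a list of 32 genes, of which 28 were tested. Of these, 2 were called higher and 4 lower, or 21.4%, beside 17.9% of all genes, with a median log2 fold change of -0.01. Crebbp, an acetyltransferase and coactivator of p53, rose by 1.55 on the log2 scale (SE 0.256; limma, adjusted p = 0.00110), with 25.0 to 51.0 normalised counts in WT and 93.3 to 148 in NA libraries. Setd7, a methyltransferase that modifies p53, rose by 0.61 (limma, adjusted p = 0.00724). Huwe1, a ubiquitin ligase with p53 among its substrates, fell by 0.70 (limma, adjusted p = 0.000192), with 633 to 745 in WT and 411 to 432 in NA libraries. Daxx, a histone chaperone that binds Mdm2, fell by 0.74 (limma, adjusted p = 0.0123), and the other genes called lower were Trp53bp1 and Pml, of which Pml was lost without NA4 or WT4. Without NA4 and WT4 Crebbp and Huwe1 were called, beside 519 of all 11494 genes in that fit. Cdkn2a, whose product Arf inhibits Mdm2, and the p53 relatives Trp63 and Trp73 were listed at 0 in all 8 libraries.

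**Figure D5:**
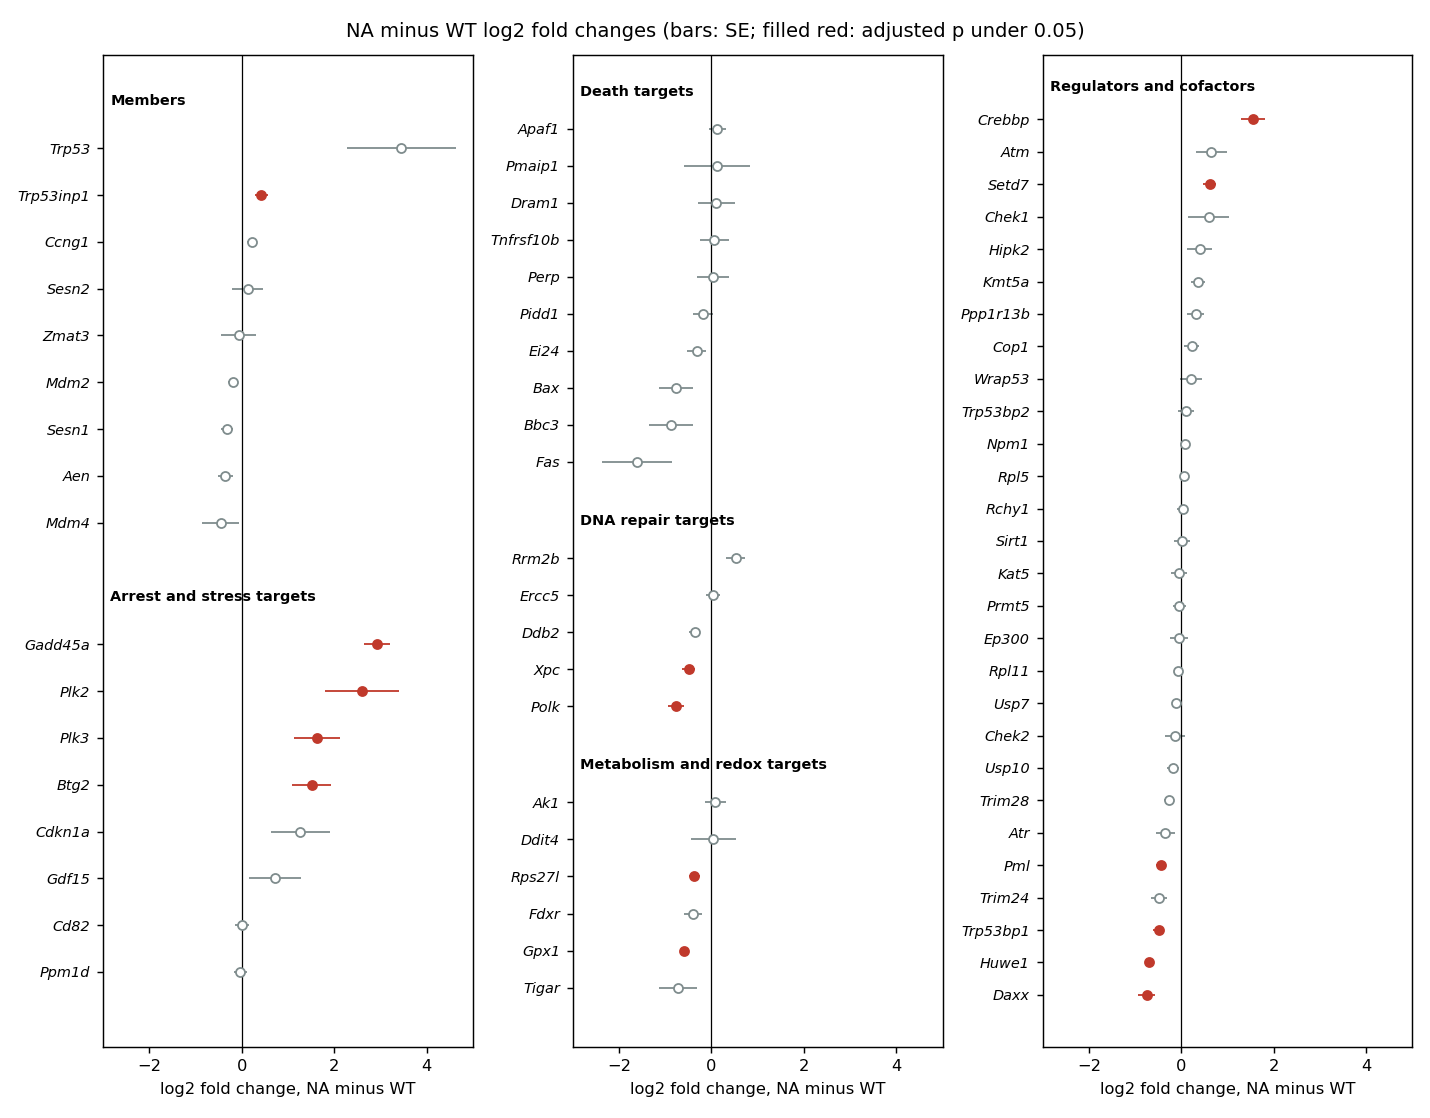
Log2 fold changes, NA minus WT, with standard errors (x axis) for the tested members, 4 lists of other targets and the regulators. Filled red points have a limma adjusted p under 0.05. Among members only Trp53inp1 is filled, and among other targets the arrest list holds the 4 filled genes above 0.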

How the data were processed

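Genes were quantified by the authors with RSEM and normalised with DESeq2, per the labels on mm10, with versions, annotation and strand use not given in the sources used here. The deposited values were a normalised signal, expected counts that the authors had divided by 1 size factor per library, and are called normalised counts here. From 98.6% to 99.0% of values above 0.5 were multiples of a library's step within 0.1 of a whole number, and estimated reads are values divided by that step. They served depth and floors only, and floors cover counting error only, since amplified reads without molecular identifiers are not independent molecules.

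Groups came from the sample titles. Symbols and coordinates were taken from GENCODE M21 (GRCm38), which named 93.8% of the rows above 0. The test was limma (version 3.58.1, with R version 4.3.3), run on genes that reached 10 normalised counts in 4 or more of the 8 libraries. It used log2(normalised count + 1) with a variance trend and no covariates, with Benjamini-Hochberg adjustment over 11451 genes and a threshold of 0.05. Differences are NA minus WT. The added 1 understates changes of genes with low values. The plan had edgeR and DESeq2 as alternatives, which were not used, because the values were read as already divided by size factors. Ratios were tested exactly over 70 label assignments. On simulated data with 11144 genes, 100 were changed 2-fold and 100 1.5-fold, with values drawn independently for each library. Of these changes 58% and 23% were called, and 2.41% of calls were unchanged genes. More genes were called in the real data, and NA4 and WT4 may not be independent of their groups. These shares may therefore not hold for the real libraries. Pseudogenes were aligned with BLAST 2.17.0.

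The members and gene lists were chosen with earlier results of these data known. Named genes were all 10 members, of each pathway list the called genes with the largest absolute log2 fold change, at most 4, and Cdkn1a, Bax, Bbc3 and Pmaip1. Other lists covered sort, erythroid, megakaryocyte, granulocyte and monocyte, mast cell and basophil, B cell, T cell, long-term stem cell and immediate early genes. Of these, limma called 2 of the 6 genes of the sort list lower, Cd48 and Ly6a, beside 7.87% of all genes. That list also held Cd34, which was not part of the sort. It also called 1 of 1 tested erythroid and 1 of 3 granulocyte and monocyte markers lower, Hbb-bt and Mpo. Of long-term stem cell markers it called 2 of 5 higher, beside 10.1% of all genes. It called 0 of 3 megakaryocyte, 0 of 1 mast cell and basophil and 0 of 1 T cell markers, of which Cd4 alone had an unadjusted p below 0.05. No B cell marker passed the filter. Alternatives were other scalings, pseudocounts and filters, no variance trend, a depth covariate, removal of a GC trend, a replicate block, and leaving out libraries.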

Additional observations from a re-analysis of the deposited data

Results flagged for a closer look

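Groups of 4 libraries were checked for a library far from the other 3 by Dixon's test at the 95% level. Of 64 groups of values examined, 2 held such a library, where chance gives about 3.2. The estimated depth of NA4 was 3887856 reads, against 4909390 to 4916988 in the other NA libraries. The other case was the log2 ratio of Mdm2 to Mdm4, which lay at 5.13 in NA2 and from 2.85 to 3.20 in NA1, NA3 and NA4. Mdm4 rested on 13 estimated reads in NA2. Without NA2 the difference of this ratio between NA and WT was -0.25 (exact permutation test, adjusted p = 0.229) in place of 0.26.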

How the results depend on the processing

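Of 519 values of single genes under the alternatives, 441 kept direction and side of the threshold, 59 lost the call, 9 gained it and 10 turned direction. The number of members called, 1 in the test as reported, was 0 under TMM, total-count and upper-quartile scaling, a pseudocount of 0.5, no variance trend, a depth covariate or removal of a GC trend, and 2 with a pseudocount of 5 or a mean of at least 50. It ran from 0 to 2 over fits that leave out 1 library. The target list held 3 calls without the low-count filter, beside 1574 of 17710 genes, and 3 without the variance trend, beside 1420 of 11451. It held 3 to 7 when 1 library was left out. Leaving out 1 library gave 1106 calls (without NA4) to 2141 calls over all genes, with 1294 without WT4, and 5 to 7 regulators. Without both NA4 and WT4 the counts were 519 genes, 0 members, 2 targets and 2 regulators. Scaling by the total count gave 925 genes higher and 1314 lower, or 41.3% higher against 56.1%, with the median of all genes at -0.08.

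The direction turned for genes that were not called. Pmaip1 went to -0.043 with a pseudocount of 5, -0.021 without the GC trend, -0.13 without NA3 and -0.72 without WT1. Zmat3 went to 0.17 without NA2, 0.12 without WT3, 0.06 without WT4 and 0.012 without both NA4 and WT4. Without NA2, Mdm4 went to 0.032, Sesn2 to -0.18 and the Mdm2 to Mdm4 ratio to -0.25. Over fits that leave out 1 library, Pmaip1 ran from -0.72 to 0.66, Zmat3 from -0.24 to 0.17, Mdm4 from -0.71 to 0.032, Sesn2 from -0.18 to 0.37 and the Mdm2 to Mdm4 ratio from -0.25 to 0.51. The cause was not tested, apart from fewer genes or libraries entering a fit.

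Same-numbered libraries did not deviate together in all pairs (r of 0.15, 0.00052, 0.0034 and 0.24), so the numbers were not taken to pair them. A replicate block called 2004 genes and 2 members, Trp53 (limma, adjusted p = 0.0323) and Trp53inp1 (limma, adjusted p = 0.0170). With this block Cdkn1a gained a call (limma, adjusted p = 0.0303) and Rps27l lost it (limma, adjusted p = 0.0619). Mdm4 summed with its pseudogene and the longest transcript as length were chosen after seeing the data. The planned fits with edgeR and DESeq2 were not run. Phlda3 rested on at most 8 and Mdm4 on 13 to 66 estimated reads per library, which limits what can be detected.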
